A study of Homo sapiens with 6 samples.

Results

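Genes of sterol synthesis and of its control by SREBP were examined by RNA-seq in BT549, a human breast cancer cell line of mesenchymal type that the labels call wild type. The 27 genes were chosen by their role in this pathway, as enzymes, SREBP control factors or sterol handling proteins, with the results of this comparison already known. All 27 were found by symbol in a table of 23346 genes. The cells of 3 libraries had received 3 siRNAs in equal parts against the zinc-finger gene BNC2 (BNC2 siRNA), and those of 3 further libraries a negative control (NC) siRNA. The siRNA dose was 20 nM in both groups, and poly(A) RNA of day 6 was sequenced from biological replicates. The comparison asks which of these genes changed in level after BNC2 knockdown in this 1 cell line.

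Cholesterol is built from acetyl-CoA through mevalonate, isoprenoid units, squalene and lanosterol. Transcription of the enzymes is driven by the SREBP factors, which are made as membrane proteins of the endoplasmic reticulum. When sterols are scarce, the escort protein SCAP carries SREBP to the Golgi, where a pair of proteases release its active part. When sterols are plentiful, INSIG proteins hold SCAP back. In parallel, the oxysterol-sensing LXR receptors activate genes such as SREBF1 and MYLIP.

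Values are deposited read counts scaled to library size with edgeR's TMM factors (CPM, a gene's share of the library times 1e+06). At least 3 libraries exceeded 1 CPM in 12186 genes, which were fitted with the quasi-likelihood test of edgeR. Calls needed an adjusted p (Benjamini-Hochberg over all genes tested) of at most 0.05, and changes are given as log2 fold change of BNC2 siRNA over NC siRNA (log2FC) with the standard error (SE). Changes were widespread, with 36.6% of the genes tested up-regulated and 36.2% down-regulated (4462 and 4417 genes, or 3950 and 4922 with scaling to total counts only). Because the members were chosen with this contrast known, their own calls are a description and not independent evidence. The libraries held 16093978 to 18246254 counts, so that 3 counts corresponded to at most 0.191 CPM. BNC2 itself had 65.6, 51.5 and 58.6 CPM after NC siRNA, against 35.5, 36.6 and 41.6 CPM after BNC2 siRNA (log2FC -0.63, SE 0.090, adjusted p = 8.2e-06), which left 64.6% of the control level. The 5 mesenchymal markers VIM, FN1, CDH2, ZEB1 and SPARC each had a mean of 120.3 CPM or more in both groups, and SPARC was down-regulated while the other 4 were up-regulated, whereas the epithelial markers CDH1, EPCAM, ESRP1 and GRHL2 had at most 1 count in any library and KRT19 at most 5. Leukocyte and endothelial markers (PTPRC, CD3E, PECAM1, CDH5 and VWF) had at most 7 counts, and CD14 had 23 to 36 with NC siRNA and 9 to 12 with BNC2 siRNA. The part of these markers in the sterol gene results was not tested. In these bulk libraries, fewer cells of a kind and less RNA per cell cannot be told apart.

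All 27 sterol genes passed the filter on low counts. Of these, 19 were up-regulated, 5 were down-regulated and 3 were not called, beside 36.6% up-regulated and 36.2% down-regulated of all genes tested. In 20 genes every BNC2 siRNA library lay above every NC siRNA library (37.7% of all genes tested), and in 5 every one lay below (37.2%). Among the genes called as up-regulated, 6 rose at least 2-fold, namely SREBF1, MYLIP, CYP51A1, AACS, INSIG1 and INSIG2, against 8.07% of all genes tested. None of the 5 down-regulated genes fell by 2-fold or more, against 10.1% of all genes tested, although TM7SF2 lay at this limit. Both 2-fold counts turn on genes close to the limit: the log2FC of TM7SF2 was -1.04 without NC siRNA replicate 3 and -1.08 with total counts only, and that of INSIG2 was 0.951 without NC siRNA replicate 1 and 0.939 with total counts only. The median log2 fold change of the 27 genes was 0.445, beside 0.0014 over all genes tested, and their median absolute log2FC was 0.479, beside 0.443. Of 17 synthesis enzymes, 11 were up-regulated and 4 fell, beside 36.6% and 36.2% of all genes tested, and the median log2FC was 0.24. Of 10 control and handling genes, 8 were up-regulated and 1 (SOAT1) fell, beside 36.6% and 36.2% of all genes tested. Their median log2FC was 0.79. Neither the counts nor the medians of the enzymes and the control genes were tested against each other.

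**Figure D1:**
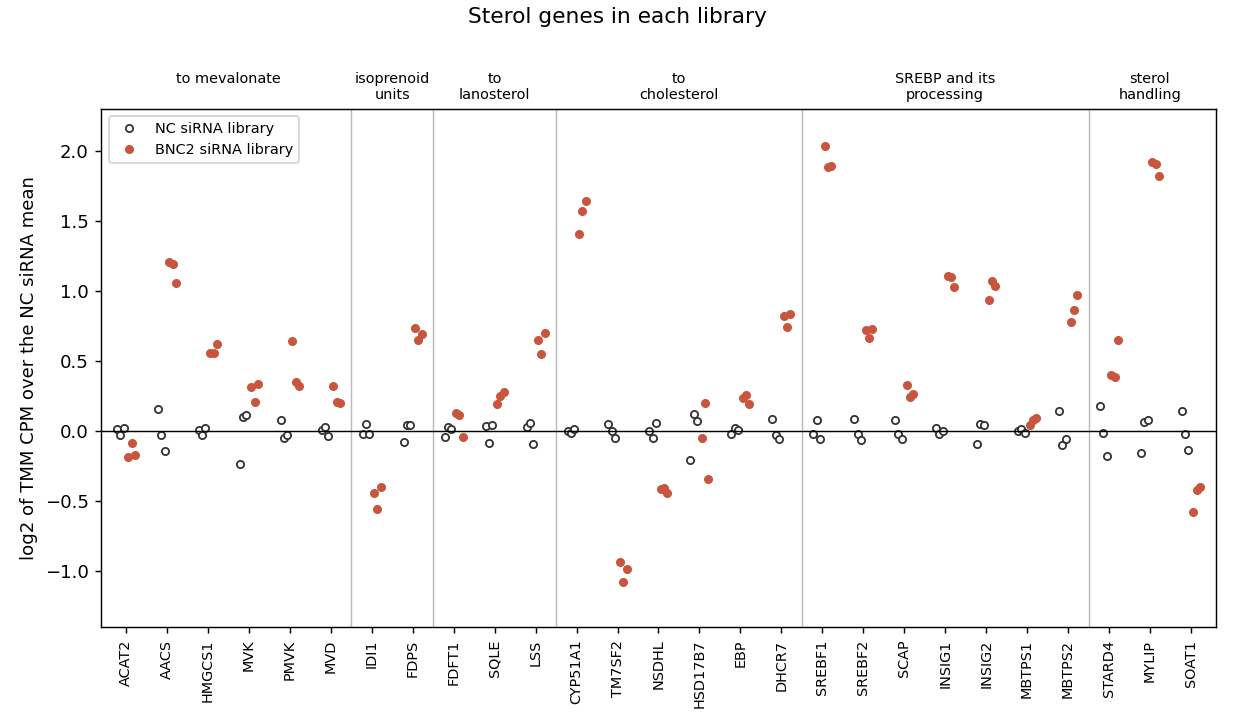
Level of each of the 27 sterol genes in each library, as log2 of its TMM CPM over the mean of the 3 NC siRNA libraries. Open points are NC siRNA libraries, filled points BNC2 siRNA libraries, and columns follow the order of the pathway. SREBF1, CYP51A1 and MYLIP stand highest, TM7SF2 lowest, and only FDFT1 and HSD17B7 overlap between the groups.

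**Figure D2:**
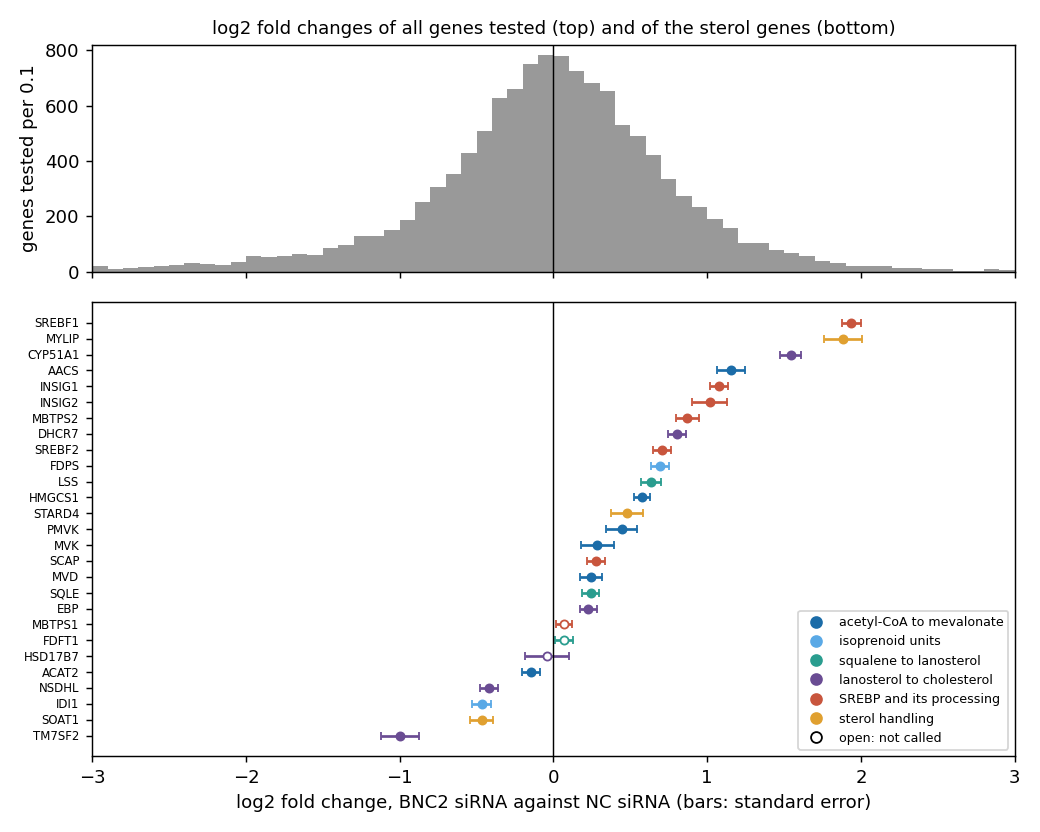
Log2 fold changes (BNC2 siRNA against NC siRNA) of all 12186 genes tested, as a histogram in bins of 0.1 in which the axis stops at -3 and 3, above those of the 27 sterol genes with standard errors. Colours give the role, and open points are genes not called. The sterol genes run from -0.9998 for TM7SF2 to 1.94 for SREBF1.

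Because SREBP factors act through short elements near the start of their targets, promoter windows are shown for some of the genes. SREBF1, MYLIP and CYP51A1 had the largest rises, and INSIG1 is a known SREBP target. SREBF2 was the only gene whose window matched the spelling of the SREBP element that was searched. The windows reach from 250 bases before to 50 bases after a RefSeq transcription start (GRCh38.p14, 300 bases, 5′ to 3′ on the strand of the gene). Of the 27 genes, 24 had at least 1 window, 29 windows in all, and ACAT2, FDFT1 and SQLE had none. The motifs were searched on both strands: TCACNCCAC for the SREBP element, CACGTG for an E-box (which reads the same on both), CCAAT for NF-Y and GGGCGG for Sp1, and none of these motifs contains another. Capitals mark matches to the first 3 of them, with CCAAT on the opposite strand reading ATTGG. The windows are those of SREBF2 (chr22:41832855-41833154, plus strand), INSIG1 (chr7:155297628-155297927, plus strand), MYLIP (chr6:16128836-16129135, plus strand), SREBF1 (chr17:17836937-17837236, minus strand) and CYP51A1 (chr7:92134428-92134727, minus strand).
SREBF2: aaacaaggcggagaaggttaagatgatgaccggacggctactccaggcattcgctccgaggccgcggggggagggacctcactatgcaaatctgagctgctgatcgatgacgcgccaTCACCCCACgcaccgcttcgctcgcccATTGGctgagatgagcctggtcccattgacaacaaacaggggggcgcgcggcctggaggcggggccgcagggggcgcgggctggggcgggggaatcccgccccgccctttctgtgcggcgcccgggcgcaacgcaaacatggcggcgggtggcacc
INSIG1: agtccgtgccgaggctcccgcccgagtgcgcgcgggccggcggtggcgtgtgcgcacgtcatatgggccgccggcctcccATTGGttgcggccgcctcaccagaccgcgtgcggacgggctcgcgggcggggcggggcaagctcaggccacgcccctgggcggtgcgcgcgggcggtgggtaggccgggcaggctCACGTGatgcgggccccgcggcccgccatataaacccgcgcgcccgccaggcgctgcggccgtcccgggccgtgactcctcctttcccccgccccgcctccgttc
MYLIP: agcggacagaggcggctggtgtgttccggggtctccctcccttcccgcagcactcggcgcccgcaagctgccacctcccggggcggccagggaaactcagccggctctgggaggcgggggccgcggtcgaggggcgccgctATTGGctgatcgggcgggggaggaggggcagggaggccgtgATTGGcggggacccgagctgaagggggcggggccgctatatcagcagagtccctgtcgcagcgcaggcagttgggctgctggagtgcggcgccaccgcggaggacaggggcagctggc
SREBF1: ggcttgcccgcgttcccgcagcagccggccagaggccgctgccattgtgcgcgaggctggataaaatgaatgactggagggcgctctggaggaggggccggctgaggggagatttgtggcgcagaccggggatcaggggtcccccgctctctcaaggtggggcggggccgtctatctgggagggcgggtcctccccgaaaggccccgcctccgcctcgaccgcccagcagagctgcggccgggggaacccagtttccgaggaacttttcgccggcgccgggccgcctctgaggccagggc
CYP51A1: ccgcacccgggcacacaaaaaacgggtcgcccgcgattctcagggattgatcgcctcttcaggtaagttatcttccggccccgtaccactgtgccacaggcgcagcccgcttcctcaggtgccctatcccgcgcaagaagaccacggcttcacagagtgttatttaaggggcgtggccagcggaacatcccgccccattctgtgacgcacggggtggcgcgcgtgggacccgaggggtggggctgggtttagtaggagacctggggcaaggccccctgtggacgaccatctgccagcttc

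The searched spelling of the SREBP element was matched in 1 of the 24 genes, SREBF2, at position -133 (first base, counted from the start), with an NF-Y match at -106. It was found in 1.13% of all 35116 windows and in 1.55% of the tested genes that had a window. INSIG1 held an E-box at -55 and an NF-Y match at -170, and E-boxes were also matched in LSS and SCAP. E-boxes were thus in 12.5% of the 24 genes, beside 12.6% of the tested genes and 7.26% of all windows. NF-Y, a factor that often acts beside SREBP, was matched in 16 of the 24 genes (66.7%), whereas 44.1% of the tested genes and 34.6% of all windows held a match. Counted by window, 58.6% of the members' 29 windows held it. Sp1 was matched in 21 of the 24 genes (87.5%), beside 78.3% of the tested genes and 45.0% of all windows. Genes with NF-Y matches included both up-regulated genes, such as MYLIP, FDPS and DHCR7, and the down-regulated IDI1, TM7SF2, NSDHL and SOAT1. The windows of SREBF1 and CYP51A1 held Sp1 matches but none of the other motifs. Only 1 start was searched for each of these genes, although SREBF1 makes isoforms from different first exons. A match says only that the letters are in the window, and no match says only that they are not. Other spellings of these elements were not searched, so a gene without a match may still hold such an element.

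**Figure D3:**
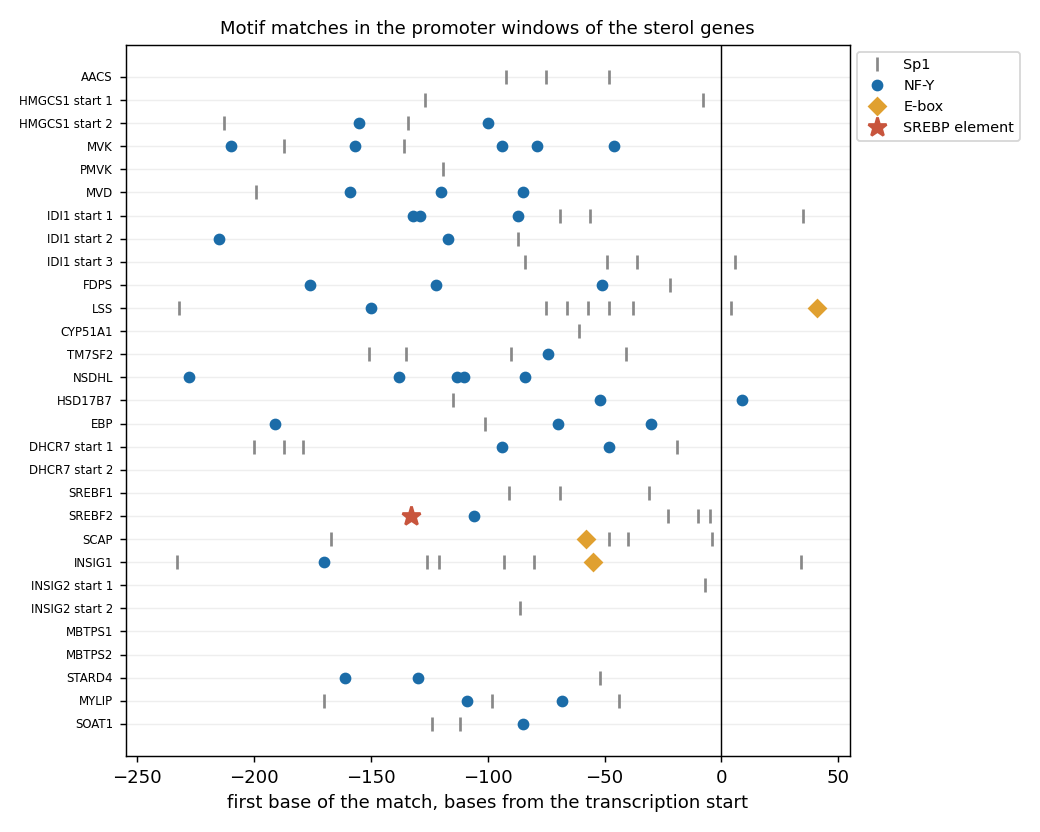
Matches to the 4 motifs in the 29 promoter windows of 24 sterol genes, by distance of the first base from the transcription start. Each row is 1 window, and genes with several RefSeq starts have several rows. NF-Y matches lie mostly before the start, as do 250 of the 300 bases of each window. The only match to the searched spelling of the SREBP element is that of SREBF2.

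SREBF1 and SREBF2 encode the SREBP1 and SREBP2 precursors. SREBF1 (chr17:17713713-17740316 of GRCh37, as for all gene positions) had 85.7, 91.9 and 83.6 CPM with NC siRNA and 356, 322 and 323 CPM with BNC2 siRNA. All BNC2 siRNA libraries were far above the NC siRNA libraries, a 3.83-fold rise (log2FC 1.94, SE 0.063, adjusted p = 1.5e-13) whose absolute size exceeded that of 95.7% of the genes tested. SREBF2 (chr22:42229109-42303310) had 119, 110.5 and 107 CPM with NC siRNA and 184, 178 and 186 CPM with BNC2 siRNA. It also rose without overlap, by less (log2FC 0.70, SE 0.058, adjusted p = 1.3e-08). The log2 ratio of SREBF1 to SREBF2 CPM within a library therefore went from -0.36 ± 0.10 (SD, n = 3) to 0.87 ± 0.077 (SD, n = 3), a difference of 1.23. Per kilobase of transcript, SREBF1 went from 17.8 ± 0.875 CPM per kb, below the 21.4 ± 1.14 CPM per kb of SREBF2, to 68.1 ± 4.03 CPM per kb, above 34.9 ± 0.817 CPM per kb. The gene counts do not separate the isoforms that SREBF1 makes from its different first exons.

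Both SREBF genes carry a microRNA in an intron on their own strand, MIR33B in SREBF1 and MIR33A in SREBF2 (miR-33b-5p at chr17:17813897-17813916, minus strand, and miR-33a-5p at chr22:41900949-41900969, plus strand, GRCh38.p14). The mature 5p arms are shown because they share a seed (bases 2 to 8, in capitals), so that the pair can address the same targets.
hsa-miR-33a-5p: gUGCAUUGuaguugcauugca
hsa-miR-33b-5p: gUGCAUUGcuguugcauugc
Neither microRNA gene had more than 1 count in any of these poly(A) libraries, so the rises of the host genes carry no measurement of the microRNAs.

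Of the 7 genes of SREBP and its processing, 6 were up-regulated and MBTPS1 was not called, beside 36.6% of all genes tested up-regulated. INSIG1, which retains SCAP in the endoplasmic reticulum and is itself a target of SREBP, had 54.9, 53.1 and 54.1 CPM with NC siRNA and 116, 116 and 110.1 CPM with BNC2 siRNA (log2FC 1.08, SE 0.060, adjusted p = 9.5e-11). Its paralog INSIG2 was much less abundant, with 6.87, 7.56 and 7.53 CPM and 14.0, 15.4 and 15.0 CPM in the same order (log2FC 1.01, SE 0.11, adjusted p = 3.9e-07). In both genes each BNC2 siRNA library was about double each NC siRNA library. The log2 ratio of INSIG1 to INSIG2 CPM was 2.88 ± 0.099 (SD, n = 3) with NC siRNA and 2.95 ± 0.092 (SD, n = 3) with BNC2 siRNA, a difference of 0.062 that was within 1 SD of either group. Per kilobase of transcript INSIG1 had 18.6 ± 0.304 CPM per kb and INSIG2 2.06 ± 0.109 CPM per kb with NC siRNA.

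SCAP rose by the least of the processing genes called, from 94.5 ± 4.61 to 114 ± 3.65 CPM (SD, n = 3; log2FC 0.28, SE 0.060, adjusted p = 6e-04). Of the proteases that release SREBP in the Golgi, MBTPS2, which makes the second of the cuts, had 61.4, 51.9 and 53.5 CPM with NC siRNA and 95.1, 101 and 109 CPM with BNC2 siRNA (log2FC 0.87, SE 0.074, adjusted p = 2e-08). MBTPS1, which makes the first, had 160.2, 162 and 159 CPM and 165, 169 and 171 CPM. Although the BNC2 siRNA libraries of MBTPS1 all lay above the NC siRNA libraries, the distance was small and was not called (log2FC 0.07, SE 0.053, adjusted p = 0.25), and it was -0.0070 with scaling to total counts only. The log2 ratio of MBTPS1 to MBTPS2 CPM went from 1.53 ± 0.13 to 0.73 ± 0.073 (SD, n = 3 each), a difference of -0.80.

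Among the enzymes that lead to mevalonate and its phosphates, 5 of 6 were up-regulated and 1 was down-regulated, beside 36.6% and 36.2% of all genes tested. AACS, which activates acetoacetate from ketone bodies for lipid synthesis, had 18.1, 16.0 and 14.7 CPM with NC siRNA and 37.6, 37.2 and 33.9 CPM with BNC2 siRNA, a 2.23-fold rise (log2FC 1.15, SE 0.091, adjusted p = 7.9e-09). HMGCS1, the cytosolic HMG-CoA synthase, went from 195, 189.8 and 197 CPM to 285, 285 and 298 CPM (log2FC 0.58, SE 0.053, adjusted p = 4.8e-08). In both genes the groups were well separated. The mevalonate kinases and decarboxylase changed by less, with log2FC of 0.44 for PMVK (adjusted p = 0.00081), 0.29 for MVK (adjusted p = 0.027) and 0.24 for MVD (adjusted p = 0.0051). MVK had 11.4, 14.4 and 14.6 CPM with NC siRNA and 16.8, 15.5 and 17.0 CPM with BNC2 siRNA, a small distance between groups that did not overlap. The call of MVK depended on single libraries: its log2FC was 0.16 without NC siRNA replicate 1 (adjusted p = 0.18), 0.28 without BNC2 siRNA replicate 1 (adjusted p = 0.063) and 0.26 when BNC2 siRNA replicate 3 was left out (adjusted p = 0.079), and it was also not called with total counts only (0.21, adjusted p = 0.09).

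ACAT2, the cytosolic acetoacetyl-CoA thiolase at the head of the pathway, had the highest adjusted p of the calls among the 27 genes. It had 109, 106 and 109 CPM with NC siRNA and 94.6, 102 and 95.7 CPM with BNC2 siRNA (log2FC -0.15, SE 0.058, adjusted p = 0.031). The groups did not overlap but lay close together. ACAT2 was not called without BNC2 siRNA replicate 1 (log2FC -0.12, adjusted p = 0.11), without BNC2 siRNA replicate 3 (-0.14, adjusted p = 0.083), without a low-count filter (-0.12, adjusted p = 0.13), with the replicate number as a block (-0.15, adjusted p = 0.089) or with counts of both strands (-0.091, adjusted p = 0.23). It overlaps TCP1 on the opposite strand, and reads on the strand opposite to ACAT2 reached 22.7% of its own count. Its count of both strands was smaller than its reverse-strand count, at 0.596 of it in the library with the lowest share. The setting with both strands thus rests on fewer reads of ACAT2.

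The isoprenoid steps went in opposite directions. FDPS, which joins isoprenoid units into farnesyl pyrophosphate, had 120.0, 130.4 and 130.4 CPM with NC siRNA and 211, 199 and 205 CPM with BNC2 siRNA (log2FC 0.69, SE 0.058, adjusted p = 1.4e-08). IDI1, the isomerase that acts just before it, had 130.2, 137 and 130.4 CPM with NC siRNA and 97.5, 90.2 and 100.2 CPM with BNC2 siRNA (log2FC -0.47, SE 0.060, adjusted p = 2.8e-06). Each BNC2 siRNA library was thus above the controls for FDPS and below them for IDI1. GENCODE lists 8 pseudogene copies of FDPS and 3 of IDI1, reads that fit a gene and a copy equally were not counted, and the part of the copies in these values was not tested.

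Between farnesyl pyrophosphate and lanosterol, LSS and SQLE were up-regulated and FDFT1 was not called, beside 36.6% of all genes tested up-regulated. LSS, the cyclase that forms lanosterol, had 101, 103 and 93.1 CPM with NC siRNA and 156, 145 and 161 CPM with BNC2 siRNA (log2FC 0.63, SE 0.063, adjusted p = 1.1e-07). SQLE, the squalene epoxidase and the most abundant member per transcript length, had 408, 376 and 409.7 CPM and 455, 473 and 483 CPM in the same order (log2FC 0.24, SE 0.056, adjusted p = 0.00098), so that the lowest BNC2 siRNA library still lay above the highest NC siRNA library. FDFT1, the squalene synthase, had 222, 233 and 230.3 CPM and 249, 246 and 221 CPM, with overlapping groups (log2FC 0.07, SE 0.059, adjusted p = 0.31), and its log2FC was -0.0087 with total counts only.

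From lanosterol to cholesterol, 3 enzymes were up-regulated, 2 were down-regulated and 1 was not called, which with so few genes lies near the 36.6% and 36.2% of all genes tested. CYP51A1 (chr7:91714301-91764117), the lanosterol demethylase that opens this stage, had 38.8, 38.4 and 39.1 CPM with NC siRNA and 103, 115 and 121 CPM with BNC2 siRNA, and GENCODE lists 3 pseudogene copies of it. Its 2.91-fold rise was the largest among the enzymes (log2FC 1.54, SE 0.070, adjusted p = 8.9e-12). DHCR7, a reductase of the last steps, had 161, 149 and 146 CPM with NC siRNA and 268, 254 and 271 CPM with BNC2 siRNA, likewise without overlap (log2FC 0.80, SE 0.058, adjusted p = 2.7e-09). EBP, the sterol isomerase, rose from 129 ± 2.04 to 151 ± 3.73 CPM (SD, n = 3; log2FC 0.23, SE 0.055, adjusted p = 0.0013).

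Between these steps, TM7SF2 and NSDHL were lower after BNC2 knockdown. TM7SF2 (chr11:64879317-64883856), a sterol reductase that follows CYP51A1, had 10.6, 10.2 and 9.87 CPM with NC siRNA and 5.35, 4.85 and 5.16 CPM with BNC2 siRNA, which left 50.01% of the control level (log2FC -0.9998, SE 0.12, adjusted p = 1.9e-06). Its annotated range overlaps that of VPS51 on the same strand, and reads on exons of both were not counted. NSDHL, a dehydrogenase that helps remove methyl groups from the ring, had 120.0, 116 and 125 CPM and 90.4, 90.8 and 88.4 CPM (log2FC -0.42, SE 0.058, adjusted p = 5.9e-06). HSD17B7, its partner in that removal, had 8.05, 10.1 and 9.75 CPM and 8.96, 10.7 and 7.32 CPM, with overlapping groups (log2FC -0.04, SE 0.14, adjusted p = 0.79). GENCODE lists 2 pseudogene copies of HSD17B7, whose part in its counts was not tested. Its log2FC was 0.0011 without NC siRNA replicate 2 and 0.077 when BNC2 siRNA replicate 3 was left out.

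Of the genes that handle sterol once it is made or taken up, MYLIP changed most. MYLIP (chr6:16129317-16148479), a ubiquitin ligase that marks lipoprotein receptors for degradation and a known LXR target, had 3.94, 4.59 and 4.64 CPM with NC siRNA and 16.6, 16.5 and 15.5 CPM with BNC2 siRNA. Its 3.69-fold rise (log2FC 1.88, SE 0.12, adjusted p = 5.8e-10) was next in size to that of SREBF1, and it rests on 70 to 82 counts in the NC siRNA libraries and 243 to 292 in the BNC2 siRNA libraries. SOAT1, which esterifies cholesterol for storage, had 94.6, 84.4 and 77.8 CPM and 57.3, 63.8 and 64.8 CPM, a fall without overlap (log2FC -0.47, SE 0.077, adjusted p = 3.8e-05). STARD4, a soluble sterol carrier, had 24.4, 21.4 and 19.1 CPM and 28.5, 28.3 and 34.0 CPM, where the groups were separate but the replicates spread widely (log2FC 0.48, SE 0.10, adjusted p = 0.00046).

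Levels can be compared between genes only per length, for which CPM were divided by the length of the MANE Select transcript of each gene. With NC siRNA the members ranged from 1.43 ± 0.126 CPM per kb for MYLIP (SD, n = 3) to 134 ± 6.54 for SQLE. EBP (115 ± 1.82) and FDFT1 (112 ± 2.86) followed SQLE and differed by less than the SD of FDFT1. With BNC2 siRNA, SQLE was still the highest (159 ± 4.86 CPM per kb), followed by FDPS (145 ± 4.46) and EBP (134 ± 3.32), and the lowest was TM7SF2 (3.25 ± 0.159). SREBF1 moved from rank 16 of 27 to rank 6, CYP51A1 from 20 to 12, and INSIG1 from 15 to 10. TM7SF2 moved down from rank 21 to 27 and IDI1 from 8 to 13, but so did the up-regulated SCAP (11 to 16) and MVD (12 to 17), which others overtook. Replicates of the same group were close, with a coefficient of variation from 0.867% (MBTPS1) to 13.1% (MVK) with NC siRNA and from 1.46% (NSDHL) to 18.6% (HSD17B7) with BNC2 siRNA.

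**Figure D4:**
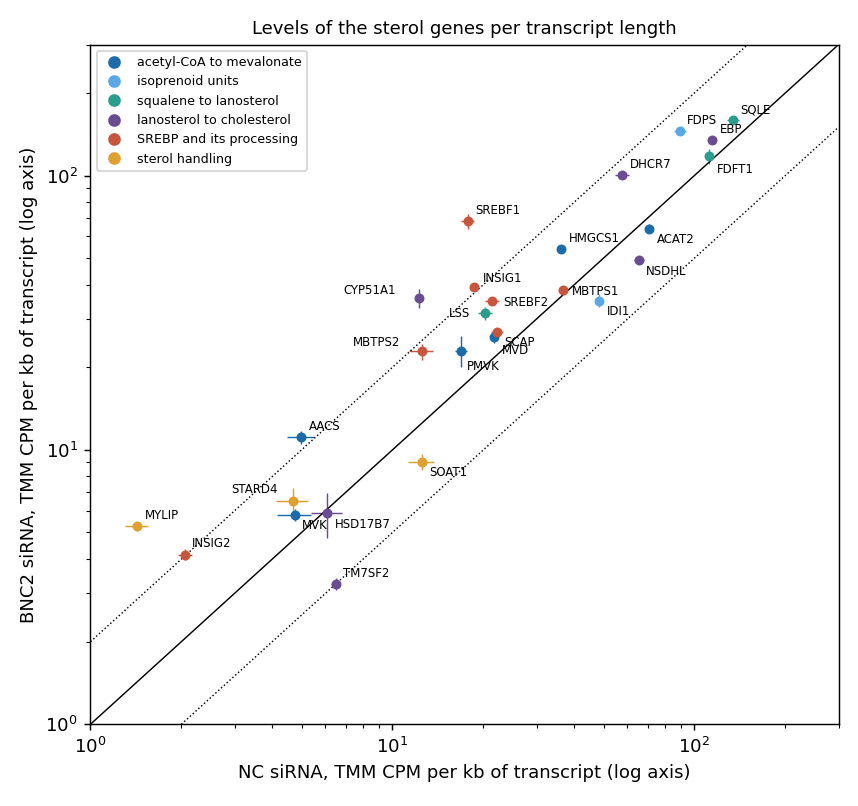
Mean level of each sterol gene per kilobase of its MANE Select transcript, in NC siRNA libraries (horizontal) and BNC2 siRNA libraries (vertical), on log axes with SD bars (n = 3). The solid line marks equal levels and the dotted lines 2-fold differences. SREBF1, MYLIP, CYP51A1 and AACS lie above the upper dotted line with INSIG1 and INSIG2 at its edge, and TM7SF2 lies on the lower one.

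A further 44 genes of sterol metabolism that are not among the 27 were counted in 5 lists. Of these, 43 were tested, 21 were up-regulated, 13 were down-regulated and 9 were not called, beside 36.6% and 36.2% of all genes, with a median log2FC of 0.16. ABCG1 was not tested, with 1 count in 1 NC siRNA library and none elsewhere.

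Of 3 further enzymes of the sterol ring, MSMO1, which removes methyl groups with NSDHL, went from 62.0 ± 5.44 up to 85.0 ± 1.54 CPM (SD, n = 3; log2FC 0.45, SE 0.069, adjusted p = 1.7e-05). SC5DL, the older symbol of a sterol desaturase that acts before DHCR7, went from 59.7 ± 5.46 CPM down to 37.1 ± 3.09 CPM (log2FC -0.69, SE 0.083, adjusted p = 1.2e-06). LBR, which can carry out the same reduction as TM7SF2, had overlapping libraries and was not called (log2FC -0.11, adjusted p = 0.19).

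The isoprenoid branch leads from farnesyl units to ubiquinone, dolichol and prenylated proteins. Of 12 genes of this branch, 6 were up-regulated and 2 down-regulated, beside 36.6% and 36.2% of all genes tested. PDSS2, a subunit of the synthase of the ubiquinone tail, had the largest rise (log2FC 1.15, SE 0.12, adjusted p = 2.4e-07), and FNTA, the alpha subunit of protein farnesyltransferase, the largest fall (log2FC -0.90, SE 0.081, adjusted p = 3.7e-08).

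Of 10 factors of sterol-regulated degradation in the endoplasmic reticulum, 4 were up-regulated and 4 down-regulated, close to the 36.6% and 36.2% of all genes tested. ERLIN2, which forms ring-shaped scaffolds in that membrane with ERLIN1, had 19.0, 20.9 and 19.4 CPM with NC siRNA and 72.4, 71.1 and 74.3 CPM with BNC2 siRNA, a 3.67-fold rise (log2FC 1.88, SE 0.072, adjusted p = 1.2e-12). Among the 43 tested genes of the 5 lists this was the largest change. UFD1L, part of the complex that extracts proteins from the membrane, had the largest fall of its list (log2FC -0.65, SE 0.081, adjusted p = 1.7e-06).

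Of 14 genes of sterol uptake, transport and efflux, 13 were tested. Of these, 7 were up-regulated and 5 down-regulated, beside 36.6% and 36.2% of all genes tested. VLDLR, a lipoprotein receptor and a substrate of MYLIP at the protein level, had 37.3, 35.6 and 39.6 CPM with NC siRNA and 78.9, 79.9 and 82.1 CPM with BNC2 siRNA (log2FC 1.10, SE 0.066, adjusted p = 2.7e-10). GRAMD1C, of a family of sterol transfer proteins, had the largest fall (log2FC -1.03, SE 0.25, adjusted p = 0.0016) at 2.07 ± 0.0397 CPM with NC siRNA. Of the LXR genes in this list, NR1H2 rose from 60.5 ± 1.01 to 104 ± 6.75 CPM (SD, n = 3; log2FC 0.78, SE 0.064, adjusted p = 1.2e-08), whereas NR1H3 had 1.28 ± 0.290 and 1.25 ± 0.291 CPM and was not called (log2FC -0.02, SE 0.29, adjusted p = 0.94). Of 5 factors that can act beside SREBP at promoters, 3 were up-regulated and 1 was down-regulated, beside 36.6% and 36.2% of all genes tested. SP1 rose (log2FC 0.44, SE 0.061, adjusted p = 7.1e-06). NFYB was lower (log2FC -0.28, SE 0.099, adjusted p = 0.02), with overlapping libraries, and it was not called without BNC2 siRNA replicate 1 (-0.23, adjusted p = 0.081) or without BNC2 siRNA replicate 3 (-0.20, adjusted p = 0.099).

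**Figure D5:**
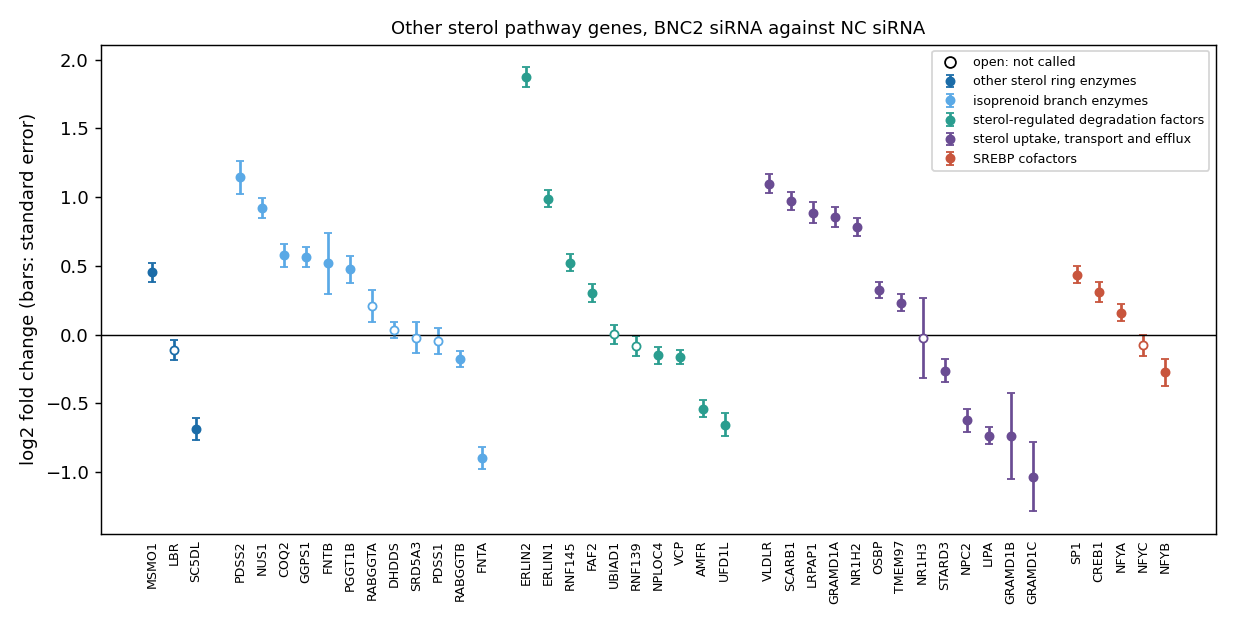
Log2 fold change (BNC2 siRNA against NC siRNA) of the 43 tested genes in the 5 further lists of sterol metabolism, with standard errors. Colours give the list, and open points are genes not called. ERLIN2 is highest at 1.88 and GRAMD1C lowest at -1.03.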

How the data were processed

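The authors aligned single-end reads to hg19 with the iGenomes UCSC annotation using STAR 2.6.1d and deposited read counts per gene without normalisation, as a table of the series and as a table per library. The table of the series holds the reverse-strand column of the library tables. Reads assigned to no gene (37.7% to 41.1% of a library) entered neither library sizes nor tests. The labels name a Lipofectamine reagent for transfection and the methods RNAiMax for siRNAs.

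A gene was kept if 3 or more of the 6 libraries exceeded 1 CPM (12186 genes), library sizes were recomputed over them, and edgeR 4.0.16 (R 4.3.3) was used with TMM factors, its quasi-likelihood test across all genes and no replicate block. The methods name edgeR's likelihood ratio test, which was an alternative, as were DESeq2 1.42.0, RLE factors, total counts only, filterByExpr, no low-count filter, unstranded counts, a replicate block and leaving out each library. A standard error is the log2 fold change divided by the root of edgeR's F statistic. The fit was tested on simulated data in which 200 genes changed 2-fold and all genes shared 1 dispersion. Of the 198 changed genes that were tested, 193 were recovered, with 13 false calls. The simulation does not cover changes as widespread as those in these libraries, or smaller ones. The limit of 3 counts covers counting error only, and p-values measure the spread between these libraries, which the methods call biological replicates.

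The named genes are the 27 members and, in each further list, the called gene with the largest rise and that with the largest fall. LBR, ABCG1, ERLIN1, NR1H2 and NR1H3 are named beside them and were picked after their values were seen. Members, lists and motifs were chosen with earlier results of these data known. Gene positions and MANE Select lengths on GRCh37 (the assembly behind hg19) were read from GENCODE release 44. Promoters and microRNAs come from RefSeq tables of GRCh38.p14, matched by symbol, and no position was converted. Figures were drawn with matplotlib 3.10.9.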

Additional observations from a re-analysis of the deposited data

Results flagged for a closer look

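Forward-strand reads, which the comparisons do not use, were looked at over the 27 genes. In ACAT2 and SREBF1 they were at a mean of at least 1 CPM and higher in every BNC2 siRNA library than in every NC siRNA library. Over ACAT2 they averaged 19.4 CPM with NC siRNA and 21.7 CPM with BNC2 siRNA, where TCP1 lies on the opposite strand. Over SREBF1, which RAI1 overlaps on the opposite strand, they averaged 1.23 CPM with NC siRNA and 2.14 CPM with BNC2 siRNA, at most 1.73% of the reads on the strand of SREBF1 in any library. There were 18 to 24 forward counts with NC siRNA, beside 1389 to 1640 on the strand of SREBF1. With BNC2 siRNA there were 29 to 51, beside 5075 to 6129, so their share of the SREBF1 reads was lower. In the opposite direction, forward-strand reads were lower in every BNC2 siRNA library over FDFT1 (1.70 to 0.648 CPM), SCAP (1.28 to 0.811 CPM), NSDHL (1.15 to 0.344 CPM) and INSIG1 (0.595 to 0.298 CPM), and over AACS they were higher (0.0936 to 0.475 CPM). Summed over all genes, forward-strand counts were also lower in every BNC2 siRNA library (261496 to 345051) than in every NC siRNA library (350780 to 379432). None of these differences was tested.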

How the results depend on the processing

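The counts of sterol genes called moved little: 18 or 19 were up-regulated and 4 or 5 down-regulated under each alternative run. Leaving out 1 library at a time gave a median log2 fold change of the 27 genes between 0.341 (without BNC2 siRNA replicate 1) and 0.498. Over BNC2, the 27 genes and the named genes of the further lists, 517 single results kept their direction and side of the threshold, 11 lost the call and 4 changed sign. The calls lost were those of ACAT2, MVK and NFYB, whose adjusted p over the alternatives ran from 0.0028 to 0.23, from 0.0089 to 0.18 and from 0.0024 to 0.099. The sign changes were in genes not called: FDFT1 (-0.0087) and MBTPS1 (-0.0070) with total counts only, and HSD17B7 without NC siRNA replicate 2 (0.0011) and BNC2 siRNA replicate 3 (0.077), with -0.182 at the lowest over the libraries left out. With total counts only the median of all genes shifted by -0.076, and EBP, still called, had a log2 fold change of 0.15. No shared effect of equal replicate numbers was seen: the deviations of same-numbered libraries correlated at -0.193, -0.0783 and -0.125 over genes. Between different numbers the correlations ran from -0.0586 to 0.164. With deviations taken within groups of 3 libraries, these values cannot decide whether the samples were handled in pairs. With the replicate block 8400 genes were called in place of 8879, and 19 sterol genes were up-regulated and 4 down-regulated, with ACAT2 (-0.15, adjusted p = 0.089) the one lost. TM7SF2 fell by more than 2-fold without NC siRNA replicate 2 or 3 or BNC2 siRNA replicate 1 or 3 (log2 fold change -1.007 to -1.044), with DESeq2 (-1.009) and with RLE factors (-1.008), and INSIG2 rose by less without NC siRNA replicate 1 or BNC2 siRNA replicate 2 (0.951 and 0.990). For genes with few counts, such as GRAMD1C, counting error limits the size of a change.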
